A study of Schmidtea mediterranea with 171 samples.

Results

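The transcription factor genes cux-1 (SmedASXL_016134), alx-3 (SmedASXL_006490) and znf-91 (SmedASXL_011708) were followed across single cells of the planarian head. They are 3 of the 67983 transcripts in the count table. They were chosen because the study had named them as transcription factors enriched in Group 3, a cluster that it called νNeoblasts (17 cells as rebuilt here). The measured values of these same cells therefore chose the 3 genes, so their levels in Group 3, and their relation to the low piwi-1 and high pc2 by which that group was described, are given as a description that supports nothing further.

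Cells came from amputated heads of asexual *Schmidtea mediterranea*, strain CIW4, a clonal line that had been starved for 1 week, with 30 animals pooled. Fluorescence-activated cell sorting on DNA content gave the X1 gate (more than 2C DNA, dividing cells) and the X2 gate (their early progeny). The series holds 96 single X1 cells, 72 single X2 cells, 2 tubes of 200 X1 cells and 1 tube of 200 X2 cells, all amplified by SmartSeq2, which copies polyadenylated RNA and carries no molecular identifiers. All samples were labelled wild type, and no treatment or mutation was compared. The labels do not say which animal or sort a cell came from, so each gate counts as 1 sample and values are given without tests.

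Neoblasts are the dividing adult stem cells of planarians, and piwi-1 and piwi-2 encode Argonaute-family proteins used to mark them, while pc2 encodes a prohormone convertase that matures neuropeptides and marks neurons. Transcription factors that bind DNA through a homeodomain or zinc fingers commonly set which genes a differentiating cell uses. The closest mouse protein of cux-1 is cut-like 1, a homeodomain protein with cut repeats that, in mammals, acts in neurons and in dividing cells. The closest mouse protein of alx-3 is aristaless-like 3, a paired-type homeodomain protein that, in mouse, takes part in patterning the face. znf-91 carries the name of a zinc finger protein, and its closest mouse protein is Rex2, which belongs to the zinc finger proteins too.

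To show what the counted reads belong to, the longest stretch that begins at an ATG and reads through without a stop to the end of the given bases is printed for each gene, in lower case. The study's sequence table gave 399 bases of each transcript here, so these are starts of predicted coding sequence. The parts of cux-1 and alx-3 that encode a homeodomain were not looked for. Capitals mark the start codon in cux-1 and alx-3, and in znf-91 the codons of 2 cysteines and 2 histidines spaced as in a C2H2 zinc finger, the fold in which these 4 residues hold a zinc ion.
cux-1: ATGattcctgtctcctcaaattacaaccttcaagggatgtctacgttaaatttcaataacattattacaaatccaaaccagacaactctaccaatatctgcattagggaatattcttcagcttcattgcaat
alx-3: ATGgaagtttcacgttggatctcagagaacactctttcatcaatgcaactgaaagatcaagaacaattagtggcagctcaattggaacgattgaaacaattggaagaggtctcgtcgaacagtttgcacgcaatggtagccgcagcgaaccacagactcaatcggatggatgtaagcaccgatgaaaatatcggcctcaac
znf-91: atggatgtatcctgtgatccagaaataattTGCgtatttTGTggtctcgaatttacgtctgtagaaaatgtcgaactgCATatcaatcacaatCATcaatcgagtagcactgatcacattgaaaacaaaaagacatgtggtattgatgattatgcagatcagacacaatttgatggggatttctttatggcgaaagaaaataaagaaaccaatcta

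The stretch shown for cux-1 holds 44 codons, that for alx-3 holds 67 and that for znf-91 holds 72. In znf-91 the cysteines are codons 11 and 14 and the histidines are codons 27 and 32, with 12 codons between the second cysteine and the first histidine. The search for this spacing found no match in the stretches of cux-1 and alx-3, which says only that it is not in these windows.

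Single X1 cells had 0.813 to 20.2 M reads assigned to a transcript (median 3.18) and single X2 cells 0.550 to 4.80 M (median 2.7), while the 3 tubes had 10.7 to 18.4 M. X1 cells had reads for a median of 5040 transcripts and X2 cells for a median of 1894. Levels in single cells are normalized counts, the raw count divided by the study's size factor for that cell, and a gene was called detected from 5 upward. Size factors averaged 0.926 in X1 cells and 2.06 in X2 cells, so the same reads give a higher normalized count in an X1 cell, and CPM (reads per M assigned reads) are given beside it between gates. piwi-2 was detected in 96 of 96 X1 cells and piwi-1 in 84. Intervals are exact, the limit beside a count of 0 is 3 counts of the total, and both cover counting error only.

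All 3 genes were undetected in most X1 cells and high in a few. In X1 cells cux-1 had a lowest value of 0, a median of 0 and a highest value of 3893 normalized counts. It was detected in 18 of 96 X1 cells (18.8%, 95% Clopper-Pearson interval 11.5 to 28.0%). The 6 highest cells held 93.0% of all its normalized counts, and the mean of 121 ± 530 (SD, n = 96 cells) became 81.4 without the highest cell. The mean therefore describes few cells.

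alx-3 was the rarest and lowest of the 3 genes in X1 cells. Its median was 0 and its highest value 620 normalized counts, with a mean of 19.5 ± 89.4 (SD, n = 96 cells), and it was detected in 10 of 96 X1 cells (10.4%, 5.11 to 18.3%). The 6 highest cells held 93.5% of its total. znf-91, the putative zinc finger gene, was the most widespread. It had a median of 0, a highest value of 3845 and a mean of 156 ± 517 normalized counts (SD, n = 96 cells), and was detected in 25 of 96 X1 cells (26.0%, 17.6 to 36.0%). Its 6 highest cells held 73.2% of the total. The intervals of cux-1 and znf-91 overlap, as do those of cux-1 and alx-3, so neither of these neighbours in the order is set apart by counting error alone.

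Cells lay on both sides of the threshold and close to it. Of the detected X1 cells, 6 with cux-1, 3 with alx-3 and 11 with znf-91 had under 50 normalized counts, and 2 calls of cux-1 and 1 of znf-91 rested on a single read. The lowest detected X1 value was 5.51 for cux-1, 8.97 for alx-3 and 5.75 for znf-91, and the highest value under it was 3.92, 4.27 and 4.90 in the same order. At least 1 read was present in 28 X1 cells for cux-1, 13 for alx-3 and 37 for znf-91. The share of X1 cells with znf-91 thus ran from 38.5% at 1 read to 14.6% at 50 normalized counts.

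In X2 cells the 3 genes parted. cux-1 was detected in 1 of 72 X2 cells (1.4%, 0.0352 to 7.50%), at 1177 normalized counts, and the other X2 cells had at most 0.716. alx-3 was also detected in 1 of 72 X2 cells, at 6.22 normalized counts. znf-91 was detected in 8 of 72 X2 cells (11.1%, 4.92 to 20.7%), with a highest value of 2549 and a median of 591 normalized counts among those 8 cells. Thus in X2 cells cux-1 was high in a single cell and alx-3 close to the threshold, while znf-91 reached levels like those of X1 cells. After every cell was thinned to 500000 assigned reads, at least 1 read of cux-1 was found in 18 X1 cells and 1 X2 cell, of alx-3 in 13 X1 cells and 3 X2 cells, and of znf-91 in 27 X1 cells and 15 X2 cells.

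**Figure D1:**
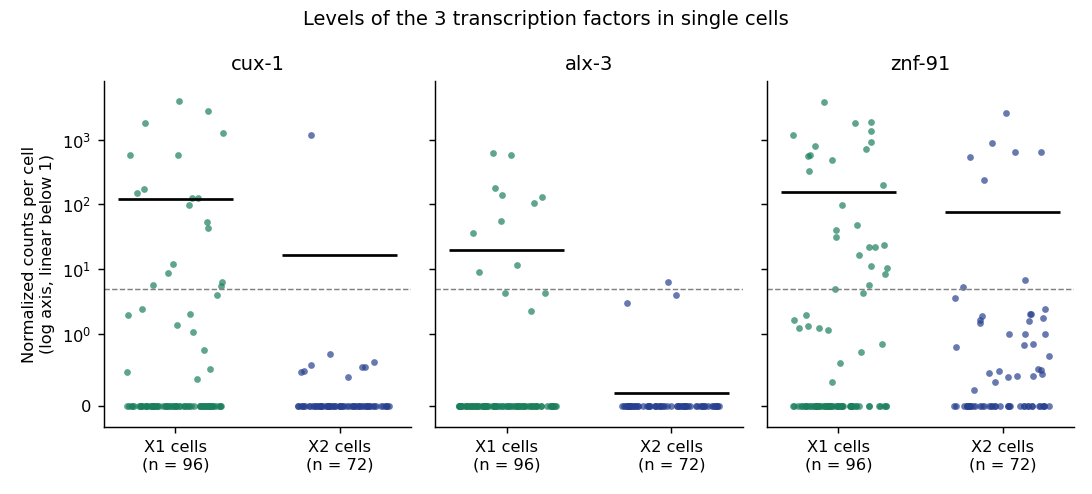
Normalized counts per cell (y axis, logarithmic above 1 and linear below it) of cux-1, alx-3 and znf-91 in 96 X1 cells and 72 X2 cells. Each point is a cell, black lines are means, and the dashed line is the detection threshold of 5. Most cells of both gates lie at 0, and in X2 cells cux-1 passes the threshold in 1 cell, alx-3 in 1 cell and znf-91 in 8 cells.

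The mean in X1 cells was compared with that in X2 cells for each gene. For cux-1 it was 121 normalized counts in X1 cells and 16.4 in X2 cells, a log2 ratio of 2.8 with a pseudocount of 1. For alx-3 it was 19.5 in X1 cells and 0.184 in X2 cells, a log2 ratio of 4.11, and for znf-91 it was 156 in X1 cells and 76.8 in X2 cells, a log2 ratio of 1.01. The scaling shifts all transcripts, since the median log2 ratio of 17779 transcripts with reads in at least 10 single cells was 1.5 with the size factors and 0.27 in CPM. All 3 genes had a mean normalized count in X1 cells at least 2 times that in X2 cells, which held for 75.2% of those transcripts.

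In CPM the log2 ratio was 1.2 for cux-1 (26.9 CPM in X1 cells and 10.8 in X2 cells), 2.3 for alx-3 (4.77 in X1 cells and 0.160 in X2 cells) and -0.29 for znf-91 (41.7 in X1 cells and 51.3 in X2 cells). cux-1 and alx-3 again passed 2 times, and znf-91 did not, against 47.9% of transcripts. With edgeR's TMM factors the log2 ratio was 2.17 for alx-3, 0.31 for cux-1, which is below the median of 0.39 over all transcripts, and -0.60 for znf-91. The sign for znf-91 turned with the scaling. Relative to the median of each scaling, alx-3 was higher in X1 cells (by 2.6, 2.0 and 1.8 on the log2 scale for size factors, CPM and TMM) and znf-91 lower (-0.51, -0.56 and -0.995), while cux-1 changed side (1.3, 0.97 and -0.08). The X2 mean of cux-1 rested on 1 cell, and without the highest cell of each gate its log2 ratio with size factors was 6.28.

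In the tubes all 3 genes were higher in the X2 gate, the other way round from single cells in CPM for cux-1 and alx-3 and the same way for znf-91. cux-1 had 23.9 CPM (440 reads, 95% Poisson interval 21.7 to 26.2) and 14.3 CPM (153 reads, 12.2 to 16.8) in the X1 tubes, against 29.5 CPM (401 reads, 26.7 to 32.5) in the X2 tube. alx-3 had 2.3 CPM (42 reads, 1.6 to 3.08) and 0.656 CPM (7 reads, 0.264 to 1.4) in the X1 tubes, against 14.3 CPM (195 reads, 12.4 to 16.5) in the X2 tube. znf-91 had 27.0 CPM (497 reads, 24.7 to 29.5) and 24.0 CPM (256 reads, 21.2 to 27.1) in the X1 tubes, against 57.7 CPM (784 reads, 53.7 to 61.8) in the X2 tube. The X2 tube was thus the highest of the 3 tubes for each gene, and its interval did not overlap those of the X1 tubes.

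The log2 ratio of the X1 tubes over the X2 tube was -0.60 for cux-1, -2.64 for alx-3 and -1.15 for znf-91, with a median of 0.08 over the same 17779 transcripts. alx-3 and znf-91 were at least 2 times higher in the X2 tube than in the higher X1 tube, which was true of 6.98% of transcripts, and cux-1 was not. The X1 tubes differed from each other for cux-1 and alx-3 by more than their counting intervals. They also differed in neural genes: synapsin had 430 reads in X1 tube 1 and 0 in X1 tube 2, against 196 in the X2 tube, and pc2 had 131 and 24.9 CPM in the X1 tubes, against 30.4 CPM in the X2 tube. piwi-2 was closer, with 873 and 931 CPM in the X1 tubes, against 776 CPM in the X2 tube. The part of this difference in the values of the 3 genes was not tested, and with a single X2 tube no test between the gates was possible. In a tube, fewer cells that express a gene and less RNA per cell cannot be told apart. The single cells and the tubes gave opposite directions for cux-1 and alx-3, and the part that the choice of cells or amplification has in this was not tested.

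**Figure D2:**
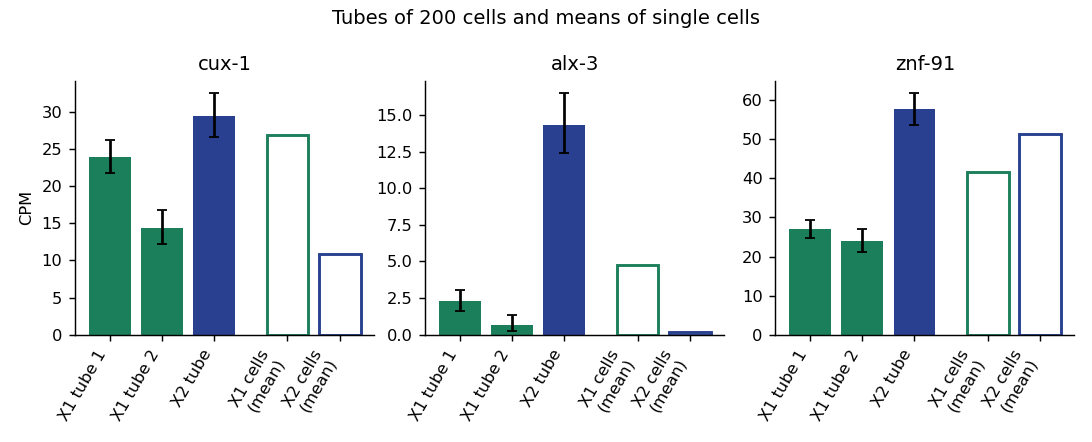
CPM (y axis) of the 3 genes in the 2 X1 tubes and the X2 tube (filled bars, with 95% Poisson intervals) beside the mean CPM of 96 X1 cells and 72 X2 cells (open bars, no error drawn). The X2 tube is the highest tube for each gene, while the mean over single cells is higher in X1 cells for cux-1 and alx-3.

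By the groups of the study, rebuilt here after its clustering steps, the 3 genes were concentrated in Group 3. The group sizes are those of the rebuild. cux-1 and znf-91 were ranked 106 and 462 by variation and were among the 1000 transcripts used to cluster the cells, and alx-3, ranked 7455, was not. cux-1 averaged 641 normalized counts in the 17 cells of Group 3 and 9.00 in the 55 cells of Group 1. alx-3 averaged 90.4 in Group 3 and 4.73 in Group 1, and znf-91 averaged 630 in Group 3 and 37.4 in Group 1. These differences were used to choose the genes. The groups also fell on different cell numbers: the 7 cells of Group 2 were numbered 3 to 22, those of Group 3 4 to 61 and the 17 X1 cells of Group 4 78 to 96, while Group 1 ran over 1 to 80. X1 cells 1 to 24 had reads for a median of 3518 transcripts and cells 73 to 96 for 6506. The study prepared 8 libraries at a time, and which ones is not given in the sources used here, so Groups 2 and 4 and preparation cannot be told apart. The part of preparation in Group 3, whose cells were numbered 4 to 61 only, was not tested.

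Detection was not confined to Group 3, since 11 of 18 cells with cux-1, 5 of 10 with alx-3 and 14 of 25 with znf-91 lay outside it. In Group 3, 7 of 17 cells had cux-1 (41.2%, 18.4 to 67.1%), beside 8 of 55 in Group 1, 0 of 7 in Group 2 and 3 of the 17 X1 cells in Group 4. In Group 3, 5 of 17 cells had alx-3 (29.4%, 10.3 to 56.0%), beside 3 of 55 in Group 1, 1 of 7 in Group 2 and 1 of the 17 X1 cells in Group 4. In Group 3, 11 of 17 cells had znf-91 (64.7%, 38.3 to 85.8%), beside 6 of 55 in Group 1, 2 of 7 in Group 2 and 6 of the 17 X1 cells in Group 4. The highest levels mostly lay in Group 3. All 6 X1 cells with at least 500 normalized counts of cux-1 and both such cells of alx-3 were cells of Group 3, and for znf-91 7 of 10 were.

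The joint detection of the 3 genes in single X1 cells was counted next. None was detected in 58 of 96 X1 cells, cux-1 alone in 9, alx-3 alone in 4 and znf-91 alone in 12. cux-1 and znf-91 were detected together, without alx-3, in 7 cells, and alx-3 and znf-91, without cux-1, in 4. No cell had cux-1 and alx-3 without znf-91, and 2 cells had all 3 genes (2.08%, 0.253 to 7.32%). At this threshold every cell with more than 1 of the genes therefore had znf-91. The 0 for cux-1 and alx-3 without znf-91 allows up to 3 cells. If each gene fell on cells by its own share alone, fewer than 2 such cells would be counted. With 1 read as detection, 5 cells had cux-1 with alx-3, and 4 of these had znf-91 too. A need for znf-91 is therefore not read from the 0.

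At least 1 gene was detected in 38 X1 cells (39.6%, 29.7 to 50.1%) and 2 or more in 13 (13.5%, 7.41 to 22.0%). If each gene fell on cells by its own share alone, 8.19 cells (8.53%) with 2 or more would be counted, a share within that interval. By pairs, cux-1 and znf-91 shared 9 cells against 4.69 from the product of their shares, which is 50.0% of the cux-1 cells and 36.0% of the znf-91 cells. alx-3 and znf-91 shared 6 cells against 2.6, which is 60.0% of the alx-3 cells and 24.0% of the znf-91 cells. cux-1 and alx-3 shared 2 cells against 1.9, which is 11.1% of the cux-1 cells and 20.0% of the alx-3 cells. The Pearson r of log2(normalized count + 1) over the 96 cells was 0.37 for cux-1 with znf-91, 0.33 for alx-3 with znf-91 and 0.06 for cux-1 with alx-3. These points share libraries and size factors, and the last value is too weak to be a finding.

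Detection of 1 gene was at least 2 times as frequent in cells with a second as in cells without it for both pairs with znf-91 and not for cux-1 with alx-3. The same was true of 23.1% of 15132 transcripts with reads in at least 10 X1 cells for cux-1, of 19.0% for alx-3 and of 19.7% for znf-91. No X2 cell had 2 or more of the genes (0 of 72, which allows a share of up to 4.17%), and 10 of 72 had 1 of them.

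**Figure D3:**
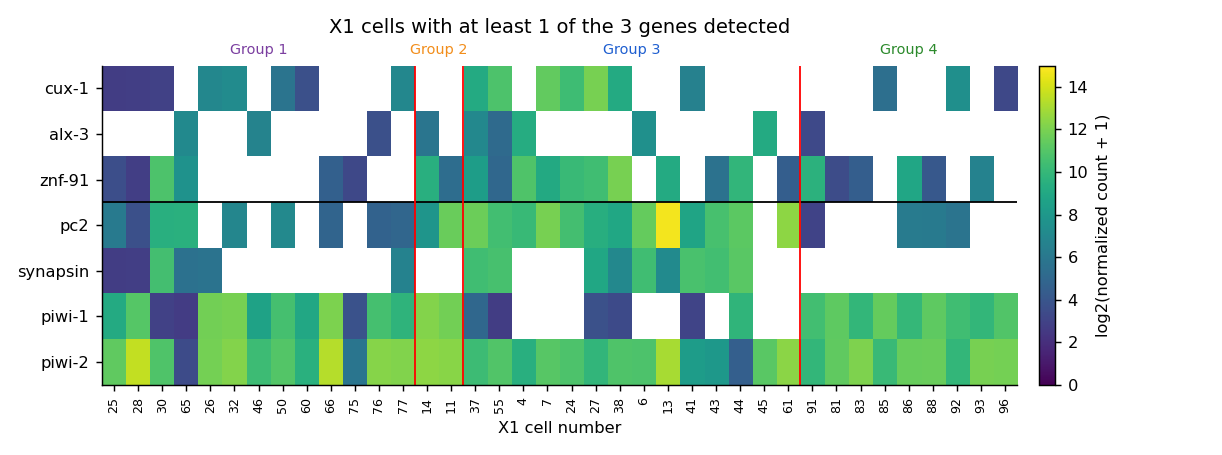
The 38 X1 cells with at least 1 of the 3 genes detected (columns, by cell number within Groups 1 to 4 of the study) and their log2(normalized count + 1) of the 3 genes, pc2, synapsin, piwi-1 and piwi-2 (rows). White is below 5 normalized counts. At this threshold each of the 13 cells with 2 or more of the genes has znf-91 and pc2.

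The 2 cells with all 3 genes both belonged to Group 3. X1 cell 37 had 577 normalized counts of cux-1, 128 of alx-3 and 327 of znf-91, with 30.7 of piwi-1 and 3193 of pc2. X1 cell 55 had 1772 of cux-1, 35.5 of alx-3 and 31.7 of znf-91, with 5.60 of piwi-1 and 1406 of pc2. Both cells were thus high in pc2, near the threshold or low in piwi-1, and kept piwi-2 at 1221 and 1977 normalized counts.

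Among the other 11 cells with 2 genes the highest levels were found. X1 cell 27 had the highest cux-1 of all cells, 3893 normalized counts, with 1371 of znf-91, and X1 cell 38 had the highest znf-91, 3845, with 569 of cux-1. X1 cell 4 had the highest alx-3, 620 normalized counts, with 1841 of znf-91. These 3 cells belonged to Group 3 and had 12.1, 9.54 and 0 normalized counts of piwi-1, beside 677, 489 and 1112 of pc2. In contrast, the lowest of these pairs were X1 cells 25 and 28 of Group 1, with 5.51 and 5.75 normalized counts of cux-1 and 11.0 and 5.75 of znf-91, and these cells had 584 and 2092 of piwi-1. Their cux-1 was 1 read in each cell and their znf-91 was 2 reads and 1 read. With 2 or more reads required as well, a setting chosen after seeing the data, 11 cells had 2 or more of the genes and 7 had cux-1 with znf-91.

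pc2 went along with the number of genes detected. pc2 was detected in 18 of 58 cells with none of the genes (31.0%), in 15 of 25 with 1 (60.0%), in 11 of 11 with 2 and in 2 of 2 with 3. The median of pc2 was 1.04 normalized counts with none, 30.4 with 1 gene, 677 with 2 and 2300 with 3. synapsin, which encodes a protein of synaptic vesicles, was detected in 4 of 58, 7 of 25, 6 of 11 and 2 of 2 cells, from no gene to 3. With 2 or more reads required for each gene, synapsin was in 4 of 59, 7 of 26, 4 of 9 and 2 of 2 cells. The median of assigned reads was 3.82 M with none, 2.94 with 1, 1.8 with 2 and 1.5 with 3, and the median number of transcripts with reads was 4700, 5927, 5028 and 5524. In a shallow cell a single read can pass the threshold. The part of depth in the counts was not tested.

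For each gene alone, and at this threshold, pc2 was more frequent in cells with the gene than in cells without it. pc2 was detected in 14 of 18 cells with cux-1 (77.8%, 52.4 to 93.6%) and in 32 of 78 without it (41.0%, 30.0 to 52.7%). With alx-3 it was detected in 8 of 10 cells (80.0%), and in 38 of 86 without it (44.2%). With znf-91 it was detected in 21 of 25 cells (84.0%, 63.9 to 95.5%), and in 25 of 71 without it (35.2%, 24.2 to 47.5%). At this threshold the intervals overlap for cux-1 and alx-3 and do not for znf-91. With 1 read as detection of both genes the shares were much closer, with pc2 in 82.1% of cells with cux-1 and 61.8% without, 76.9% with alx-3 and 66.3% without, and 73.0% with znf-91 and 64.4% without.

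Read the other way, all 3 genes were detected at least 2 times as often in cells with pc2 as in cells without it, as were 18.6% of 15132 transcripts. The Pearson r with pc2 was 0.39 for cux-1, 0.24 for alx-3 and 0.56 for znf-91, and 99.0%, 94.2% and 99.9% of those transcripts had a lower r with pc2, beside a median of 0.01. Since the genes were chosen on cells high in neural genes, nothing is read from their place. Without the 17 cells of Group 3 the r was 0.18 for cux-1, 0.21 for alx-3 and 0.33 for znf-91.

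At 5 normalized counts, cells with and without each gene differed less in piwi-1 than in pc2 detection. piwi-1 was detected in 16 of 18 cells with cux-1 (88.9%, 65.3 to 98.6%) and in 68 of 78 without it (87.2%, 77.7 to 93.7%). With alx-3 it was detected in 7 of 10 cells (70.0%), and in 77 of 86 without it (89.5%). With znf-91 it was detected in 19 of 25 cells (76.0%), and in 65 of 71 without it (91.5%). Every pair of intervals overlaps. The direction for cux-1 turned with the threshold: at 50 normalized counts for both genes, piwi-1 was present in 41.7% of cells with cux-1 and 76.2% of cells without it. At that threshold piwi-1 was in 28.6% of cells with alx-3 and 75.3% without, and pc2 in 71.4% with alx-3 and 32.6% without. There the difference for alx-3 was larger in piwi-1 than in pc2. Without the cells of Group 3, piwi-1 was detected in all of the 11 cells left with cux-1, the 5 with alx-3 and the 14 with znf-91.

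The medians of piwi-1 were further apart than the shares. The median was 547 normalized counts with cux-1 and 938 without it, 18.1 with alx-3 and 938 without it, and 30.7 with znf-91 and 968 without it. The Pearson r with piwi-1 was -0.25 for cux-1, -0.28 for alx-3 and -0.33 for znf-91, with 5.22%, 3.59% and 2.02% of transcripts lower and a median of 0.03. alx-3 and znf-91 were detected at least 2 times as often in cells without piwi-1 as in cells with it and cux-1 was not, against 16.6% of transcripts. Without Group 3 the r was 0.050 for cux-1, -0.11 for alx-3 and -0.09 for znf-91, which are too weak to be findings.

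Cells with much cux-1 differed from cells with little. The 6 cells with at least 500 normalized counts of cux-1 had 0 to 30.7 of piwi-1 (median 7.57) and 489 to 3842 of pc2 (median 1428). The 12 cells with 5 to 500 of cux-1 had 6.41 to 3828 of piwi-1 (median 1438) and 0 to 692 of pc2 (median 42.4), and 1 of them belonged to Group 3. Cells with much cux-1 were thus low in piwi-1 and cells with little mostly high in it, with overlap between 6.41 and 30.7.

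The 10 cells with at least 500 normalized counts of znf-91 had a median of 7.97 of piwi-1, though 3 of them had at least 100, and 7.18 to 27523 of pc2. The 15 cells with 5 to 500 of znf-91 had a median of 968 of piwi-1 and 72.3 of pc2. High znf-91 therefore occurred at both ends of piwi-1: X1 cell 14 of Group 2 had 719 of znf-91 with 4724 of piwi-1. None of the 6 cells with at least 500 of cux-1, all of Group 3, had at least 100 of piwi-1. These cells are too few to set cux-1 apart from znf-91. The 2 cells with at least 500 of alx-3 had 0 and 4.69 of piwi-1.

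**Figure D4:**
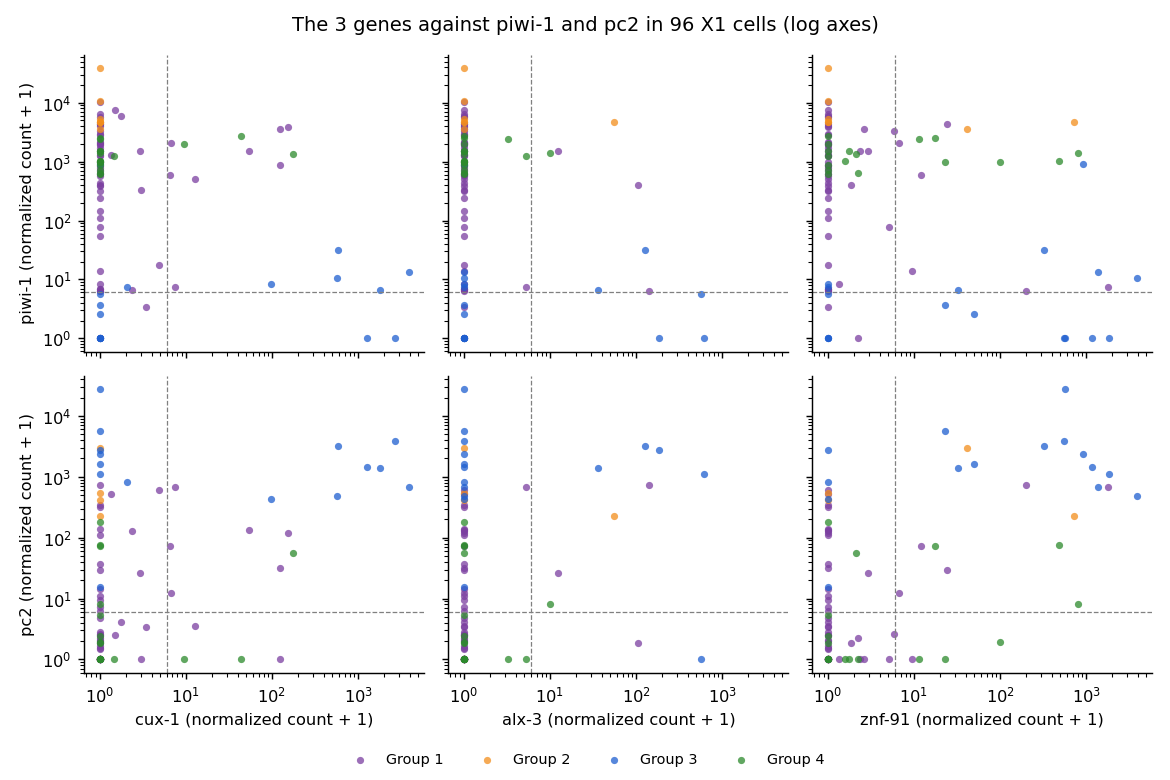
Normalized counts plus 1 (log axes) of piwi-1 (upper row) and pc2 (lower row) against cux-1, alx-3 and znf-91 in 96 X1 cells, colored by Groups 1 to 4 of the study, with dashed lines at the detection threshold. The 6 cells with at least 500 of cux-1 lie at 0 to 30.7 of piwi-1 and at 489 to 3842 of pc2.

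When X1 cells were sorted by both marker genes, cux-1 and znf-91 were most frequent where pc2 was detected, with or without piwi-1, and alx-3 was least frequent where piwi-1 was detected without pc2. Of 8 cells with pc2 and without piwi-1, 2 had cux-1, 2 had alx-3 and 6 had znf-91 (75.0%, 34.9 to 96.8%). Of 38 cells with both, 12 had cux-1 (31.6%, 17.5 to 48.7%), 6 had alx-3 (15.8%, 6.02 to 31.3%) and 15 had znf-91 (39.5%, 24.0 to 56.6%). Of 46 cells with piwi-1 and without pc2, 4 had cux-1 (8.70%, 2.4 to 20.8%), 1 had alx-3 (2.17%, 0.0550 to 11.5%) and 4 had znf-91 (8.70%, 2.4 to 20.8%). Of 4 cells with neither, 1 had alx-3, and the other genes were not detected.

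No cell with piwi-1 and without pc2 had 2 or more of the genes, which allows a share of up to 6.52%, beside 10 of 38 with both markers (26.3%, 13.4 to 43.1%) and 3 of 8 with pc2 alone (37.5%, 8.52 to 75.5%). The largest number of co-detecting cells was thus piwi-1-positive and pc2-positive at this threshold, although most of them were low in piwi-1. In X1 cells 27, 30, 37, 38, 55 and 65 it was 5.42 to 30.7 normalized counts, beside a median of 868 over all X1 cells. The 3 with pc2 alone were X1 cells 4, 7 and 24, and the part of cell number in this split was not tested.

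**Figure D5:**
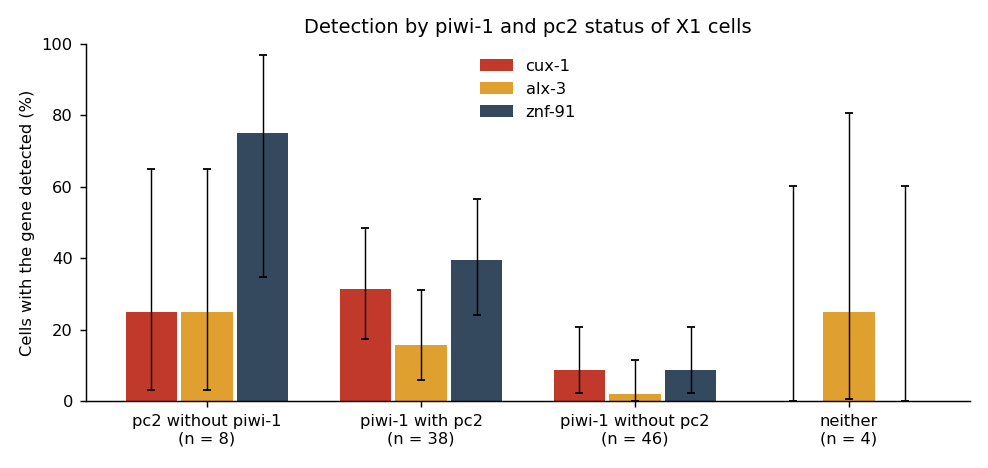
Percent of X1 cells with cux-1, alx-3 or znf-91 detected (y axis), by detection of piwi-1 and pc2 in the same cell (x axis, with the number of cells). Error bars are 95% Clopper-Pearson intervals. The shares are 31.6, 15.8 and 39.5% where piwi-1 and pc2 are both detected, against 8.70, 2.17 and 8.70% where piwi-1 is detected without pc2.

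The other transcription factors that the study had named beside them showed a similar pattern, and they too had been chosen on these cells. ski-1 and ski-3 are related to the Ski proteins, transcriptional corepressors, and smad-4 to the common mediator of TGF-β and BMP signals in animals. All 3 were detected at least 2 times as often in cells with cux-1, alx-3 or znf-91 as in cells without. The same was true of 23.1%, 19.0% and 19.7% of all transcripts for cux-1, alx-3 and znf-91. With alx-3 it rested on 3 cells for ski-1, 3 for ski-3 and 2 for smad-4. smad-4 was detected in 7 X1 cells, all of them among the 25 with znf-91, and in 0 of 71 without it, which allows a share of up to 4.23%, and it had an r of 0.59 with znf-91. smad-4 was not detected in X2 cells.

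Among the 11 further genes of Group 3 that the study had listed, 9 had reads in enough X1 cells. znf-91 had 9 of the 9 at least 2 times as frequent in its cells, cux-1 had 7 and alx-3 had 5. This held for 19.7%, 23.1% and 19.0% of all transcripts for znf-91, cux-1 and alx-3. The median r of the 9 was 0.45 with znf-91, 0.32 with cux-1 and 0.19 with alx-3. Over all transcripts the median was 0.01 with znf-91, 0.01 with cux-1 and close to 0 with alx-3. sec14-l2, named for a lipid-binding protein, was detected in 6 of 25 cells with znf-91 and 0 of 71 without (a share of up to 4.23%). glrb, named for the glycine receptor beta subunit, was detected in 5 of 10 cells with alx-3 and 4 of 86 without, and was its closest listed gene (r = 0.46).

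Among neuronal markers, 4 of 6 were at least 2 times as frequent with znf-91, 2 of 6 with cux-1 and 2 of 6 with alx-3, beside 19.7%, 23.1% and 19.0% of all transcripts for znf-91, cux-1 and alx-3. chat, which makes acetylcholine in cholinergic neurons, was detected in 16 of 25 cells with znf-91 and 19 of 71 without (r = 0.62). synapsin was detected in 10 of 18 cells with cux-1 and 9 of 78 without (r = 0.38). In contrast, nkx2.4, a homeobox gene of the brain, was detected in 1 of 18 cells with cux-1 and 20 of 78 without.

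Each of the 7 neoblast markers was detected in over 50% of the X1 cells without each gene, so that no share could double, and only their r is given. Its median was -0.13 with cux-1, -0.13 with alx-3 and -0.19 with znf-91. Of the 3 markers of the epidermal lineage 0 passed 2 times with any of the genes, with a median r of -0.14, -0.09 and -0.15 for cux-1, alx-3 and znf-91. Among all transcripts 23.1%, 19.0% and 19.7% passed in the same order. With so few markers in a list, a count of 0 is not read as a lack of link. The count was also 0 of 5 for markers of the sigma class, a group of neoblasts with broad potential, with a median r of -0.05 with cux-1, -0.05 with alx-3 and 0.13 with znf-91. The study questions how specific earlier sigma markers are, and states that other authors had identified znf-91 itself as a sigma marker. The 5 sigma markers went different ways with znf-91. nlk-1 was detected in 13 of 25 cells with it and 25 of 71 without, and soxP-2 in 9 of 25 with it and 15 of 71 without. inx-13, an innexin gap junction gene, was detected in 0 of 25 with it (a share of up to 12.0%) and 15 of 71 without. soxP-3 of the epidermal lineage was detected in 0 of 18 cells with cux-1, which allows a share of up to 16.7%. In cells without cux-1 it was detected in 10 of 78 (12.8%), a share within that limit.

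The transcripts most like each gene over the 96 X1 cells, by Pearson r among 15132, were not paired with a gene name in the files. They were SmedASXL_016099 (r = 0.61) and SmedASXL_012169 (r = 0.61) for cux-1, SmedASXL_002647 (r = 0.61) and SmedASXL_061810 (r = 0.51) for alx-3, and SmedASXL_002054 (r = 0.65) and SmedASXL_004435 (r = 0.63) for znf-91. SmedASXL_016099 was detected in 8 X1 cells, 6 of them with cux-1, and SmedASXL_002054 in 19, 14 of them with znf-91. SmedASXL_002647 was detected in 7 X1 cells, 5 of them with alx-3, and like alx-3 it was not among the 1000 clustering transcripts. Other transcripts took these places for all 3 genes with Spearman's rho. In CPM the places changed for alx-3, and chat, a named gene, came first for znf-91 (r = 0.67). With reads required in at least 5 or at least 20 X1 cells, places changed for cux-1 and alx-3 and stayed for znf-91.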

How the data were processed

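The authors sequenced SmartSeq2 libraries as 50-bp single-end reads, trimmed 15 bp, aligned them with Bowtie2 2.2.4 (per the submitters' processing notes) to the SmedASXL transcriptome assembly and deposited raw counts per transcript. The entry of unassigned reads (31.6% of counts in a single cell on average) was left out of CPM. The second matrix holds signal values that the authors made by dividing counts by a DESeq size factor per cell and Winsorizing 2 cells of each transcript. The size factors were recomputed from 29 transcripts with reads in every cell and the unassigned entry, and this second matrix was used for the ranking by variation, the rebuilt groups (first 1000 transcripts, Ward clustering, 10 groups) and 1 alternative. Values in the text are raw counts over size factors, without Winsorizing. Reads without molecular identifiers are not independent molecules.

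Named genes were the 3 members, the marker genes and lists of the study, and the 2 transcripts of highest Pearson r with each member. The members and lists were chosen with earlier results of these data known. A name without a published transcript was paired with the transcript whose values over 49 listed cells correlated at r of at least 0.99, which gave 17 names and recovered 5 of 5 known pairs. No genomic position or isoform was used here. Near-identical copies could share reads. Comparisons used scipy 1.17.1 and pandas 2.3.3 under Python 3.11.15 with numpy 2.4.6, matplotlib 3.10.9, R 4.3.3 with data.table (version 1.17.8), and edgeR 4.0.16 for TMM factors only. The ranking of correlations was tested on simulated data. No 2 cells had values correlated above 0.999. Alternatives covered the detection threshold (with 1 setting added after seeing the data), thinning (seed 1, no cell left out), scaling, pseudocount, and ranges of cells left out.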

Additional observations from a re-analysis of the deposited data

How the results depend on the processing

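No paired analysis was possible because every value is a description of cells from 1 sample per gate, and cell numbers pair nothing. Under the alternatives, 137 values were classed as unchanged, 53 as moved and 10 as changed in direction, and the cause was not tested. The classes do not measure error: all 3 genes in 4 or in 1 X1 cells, instead of 2, was classed as moved. Requiring 2 or more reads, chosen after seeing the data, left every value classed as unchanged, though cux-1 then had piwi-1 in 87.5% of cells with it and 87.5% without. With 1 read as detection, cux-1 was in 29.2% of X1 cells and 12.5% of X2 cells and znf-91 in 38.5% of X1 cells and 47.2% of X2 cells, all 3 genes in 4 X1 cells, cux-1 with alx-3 in 5 and alx-3 with znf-91 in 10. At 50 normalized counts znf-91 was in 14.6% of X1 cells and alx-3 in 0 X2 cells, all 3 genes in 1 X1 cell, 2 or more in 8, cux-1 with alx-3 in 1 and with znf-91 in 5, and piwi-1 was then present in 41.7% of cells with cux-1 (76.2% without), 28.6% with alx-3 and 35.7% with znf-91. Thinned cells had znf-91 in 20.8% of X2 cells and piwi-1 in 77.8% of cells with cux-1 (80.8% without). At 5 CPM piwi-1 was in 53.8% of cells with cux-1 (74.7% without) and 47.6% with znf-91.

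The log2 ratio of X1 over X2 cells for cux-1 was 1.2 in CPM, 0.31 with TMM and 6.28 without the highest cell of each gate. For alx-3 it was 2.3 in CPM, 2.17 with TMM, 6.11 with a pseudocount of 0.1 and 3.33 with Winsorized values. For znf-91 it turned to -0.29 in CPM and -0.60 with TMM. Leaving out 1 tube changed no direction, with log2 ratios of X1 over X2 from -0.99 to -0.29 for cux-1, -3.21 to -2.23 for alx-3 and -1.23 to -1.07 for znf-91.

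Without X1 cells 25 to 48, 1 cell had all 3 genes, 7 had 2 or more, 1 had cux-1 with alx-3 and 3 cux-1 with znf-91, piwi-1 was in 77.8% of cells with cux-1 (88.9% without), and pc2 in 100% of cells with alx-3. Without cells 49 to 72, 1 cell had all 3 genes, 1 had cux-1 with alx-3, and piwi-1 was in 86.7% of cells with cux-1 (87.7% without). Without cells 1 to 24 piwi-1 was in 100% of cells with cux-1, and without cells 73 to 96 pc2 was in 100% of cells with znf-91. Without the cells of Group 3, 0 cells had all 3 genes, 6 had 2 or more, 0 cux-1 with alx-3, 3 cux-1 with znf-91 and 3 alx-3 with znf-91. piwi-1 was then in 100% of cells with cux-1, 100% with alx-3 (97.3% without) and 100% with znf-91 (96.9% without), and the r of cux-1 with piwi-1 was 0.050. Depth limits detection: a gene under 5 normalized counts may still be expressed.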

Other observations

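Of the 13 X1 cells with 2 or more of the genes, 6 lay outside Group 3, and 2 of these had pc2 high and piwi-1 near the threshold. X1 cell 30 of Group 1 had 1796 normalized counts of znf-91 and 6.41 of cux-1, with 692 of pc2, 1487 of synapsin and 6.41 of piwi-1. X1 cell 65 of Group 1 had 197 of znf-91 and 140 of alx-3, with 740 of pc2, 46.4 of synapsin and 5.42 of piwi-1, and only 9.83 of piwi-2. X1 cell 91 of Group 4 had 799 of znf-91 with 1419 of piwi-1 and 7.18 of pc2.

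The X2 cells with the genes were not alike. The X2 cell with 1177 normalized counts of cux-1 had 2935 of piwi-2, 17.9 of piwi-1 and 0.470 of pc2. Of the 8 X2 cells with znf-91, the cell with 543 had 1276 of pc2, and the cell with 2549, the highest, had 982 of piwi-1, 5203 of piwi-2 and 0 of pc2. The cell with 876 of znf-91 had 2.3 of piwi-1 and 2.3 of piwi-2.

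Detection of cux-1 was uneven over the numbers of the X1 cells, to which the labels give no meaning: it was found in 2 of cells 1 to 24, 9 of 25 to 48, 3 of 49 to 72 and 4 of 73 to 96. znf-91 was found in 6, 8, 4 and 7 of the same ranges, and alx-3 in 3, 3, 2 and 2. Mean levels were uneven for all 3 genes and lower in cells 49 to 96. In the same ranges cux-1 averaged 166, 226, 76.7 and 14.7 normalized counts, and znf-91 204, 347, 11.7 and 59.8. alx-3 averaged 35.7 in cells 1 to 24, 33.7 in cells 25 to 48 and under 10 in both later ranges. These means rest on few high cells, and the part of cell number in them was not tested.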
